A study of Homo sapiens with 2 samples.

Results

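The 9 genes described here belong to the NRF2 antioxidant pathway and to glutathione synthesis: NFE2L2, KEAP1, NQO1, HMOX1, GCLC, GCLM, SLC7A11, TXNRD1 and GSTP1. They were chosen by gene symbol from 22465 named genes on the array, all 9 were measured, and each was represented by 1 transcript cluster, the probe set that summarises a gene on this array. RNA came from NCI-H446, a long-established line grown from a human small cell lung carcinoma, and was read on Affymetrix arrays. The control cells carried a control vector, and the other cells held a stable MTA1 overexpression plasmid. MTA1 belongs to NuRD, a complex that remodels chromatin and removes histone acetyl groups. Both were grown in DMEM with serum, and the labels name no oxidant or drug treatment. The sources used here do not give the promoter of the plasmid, nor whether the stable cells were a clone or a pool. Each group had 1 array, so no replicate check, no test and no SD exist for any difference, and every value describes these 2 arrays.

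NRF2, the product of NFE2L2, is a transcription factor that switches on genes against oxidants and reactive chemicals. KEAP1 holds it in the cytoplasm and hands it to a CUL3 ubiquitin ligase for destruction until oxidants or electrophiles modify KEAP1's cysteines. Freed NRF2 pairs with a small MAF protein on antioxidant response elements and raises enzymes that make glutathione, reduce thioredoxin and quinones and break down heme. In lung cancers the pathway is known for protecting cells from drugs and from oxidative death, and its activity is set largely through NRF2 protein, which a transcript array does not measure.

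The 9 genes were close to level between control and MTA1-overexpressing cells. HMOX1 was the furthest above, 1.27-fold higher on the MTA1 array, and GSTP1 the furthest below, 1.31-fold lower. NQO1 and TXNRD1 differed by less than 0.01 on the log2 scale. None of the 9 reached 2-fold in either direction, where 0.63% of the 14451 genes that passed the signal floor did, 0.291% higher and 0.339% lower. None reached 1.5-fold, where 3.2% of all genes did, 1.45% higher and 1.74% lower. At 1.2-fold 2 of the 9 passed, HMOX1 and GSTP1, against 17.7% of all genes. The floor, a log2 signal of 3.62, was the median of all transcript clusters, and all 9 genes lay above it on both arrays. The median difference of the 9, MTA1 minus control, was 0.04 against -0.013 over all 14451 genes, and 5 of the 9 lay above 0 against 46.4% of all genes. The median size of the difference was 0.047 for the 9 and 0.11 for all genes. A size under 0.05 was seen for 5 of the 9 and for 24.3% of all genes. That limit was not one of the set thresholds, and the count depended on the scaling. NFE2L2 and GCLM exceeded it with median centring, at 0.054 and 0.060. They also did with the loess fit, at 0.068 and 0.082, and with repeated quantile normalisation, at 0.072 and 0.079. KEAP1, NQO1 and TXNRD1 stayed under it in size with each of these. Between the lower and upper quartile of all genes, -0.13 and 0.10, lay 5 of the 9. The overexpressed gene, MTA1, had a signal of 7.31 on the control and 9.82 on the MTA1 array, or 5.71-fold more.

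**Figure D1:**
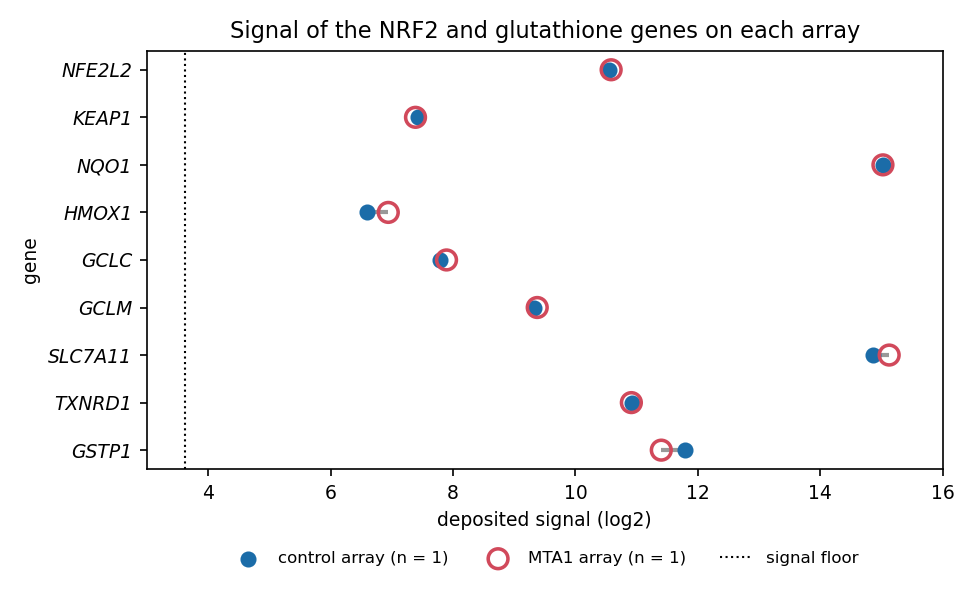
Deposited log2 signal of each of the 9 genes on the control array (filled) and the MTA1 array (open), 1 array each, with the signal floor of 3.62 as a dotted line. The circles overlap for most genes and part for HMOX1, SLC7A11 and GSTP1. Positions along the axis cannot be compared between genes, because probes differ in brightness.

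Promoter sequences are printed because NRF2 acts on its targets through a short DNA element. RefSeq windows of 300 bases ran from 250 before to 50 after a start site in build GRCh38.p14. They were at hand for 7 of the 9 genes, with 10 windows in all, since some genes have several starts. HMOX1 and SLC7A11 had no window, so no motif was searched for them. The core of the antioxidant response element, TGACNNNGC, was searched on both strands. It was found in 5 of the 10 windows, in those of KEAP1, GCLM, TXNRD1 and GSTP1, and in 13.3% of all 35116 windows. The matches are printed 5′ to 3′ along the gene, with 20 bases on either side and the core in capitals. A core on the opposite strand reads GCNNNGTCA.
GSTP1, chr11:67583726-67583774, plus strand: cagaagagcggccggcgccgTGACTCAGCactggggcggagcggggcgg
GCLM, chr1:93909436-93909484, minus strand: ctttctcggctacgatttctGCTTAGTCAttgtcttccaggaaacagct
KEAP1, chr19:10502774-10502822, minus strand: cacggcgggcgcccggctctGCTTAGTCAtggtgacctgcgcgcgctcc
KEAP1, chr19:10502797-10502845, minus strand: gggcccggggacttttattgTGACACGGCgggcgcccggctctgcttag
TXNRD1, chr12:104215660-104215708, plus strand: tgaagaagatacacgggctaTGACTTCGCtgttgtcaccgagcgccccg
TXNRD1, chr12:104286910-104286958, plus strand: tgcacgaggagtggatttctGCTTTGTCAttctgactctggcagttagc

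The match in the GSTP1 window began 66 bases before the start and overlaps an AP-1 site, TGACTCA, which 4.95% of all windows held on either strand. No other of the 10 windows held that site. The GCLM and the nearer KEAP1 match, which began 34 and 31 bases before their starts, have the same core letters on the opposite strand. TXNRD1 had a further match that began 8 bases before its upstream start. The windows of NFE2L2, NQO1 and GCLC held no such letters, which says nothing of sites outside them. The amino acid response element TGATGCAA, the kind of site that ATF4 uses, was in none of the 10 windows and in 0.866% of all. SLC7A11 and HMOX1 had no window and were not searched for that element. Among genes at or above the floor, the 1998 with a core in any window had a median difference of -0.014. The 8311 with windows but no core had -0.017.

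The regulators NFE2L2 and KEAP1 were close to level. NFE2L2, which encodes NRF2 and lies on chromosome 2, had a log2 signal of 10.54 on the control and 10.58 on the MTA1 array, a difference of 0.04. KEAP1, the NRF2 inhibitor on chromosome 19, had 7.43 and 7.39, a difference of -0.045. As large a difference was found for 79.7% of all genes in the case of NFE2L2 and 77.8% in that of KEAP1. The direction of KEAP1 turned when quantile normalisation was repeated, to 0.001.

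Transcripts of the proteins that act with them had a median near that of all genes. Of the 16 genes listed as NRF2 control proteins, 13 had a value and 11 passed the floor. Of these 11, 4 lay above 0 and 7 below, with a median of -0.014, and none was 1.5-fold apart in either direction. CUL3, the ligase scaffold, stood at 10.52 on both arrays. MAFF, a small MAF partner, had 4.17 and 4.15, and SQSTM1, the autophagy receptor that can bind KEAP1, had 9.68 and 9.73. The largest difference of the list was that of NFE2L3, an NRF2 relative, at 5.21 and 4.80.

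GCLC and GCLM, the genes of the first step of glutathione synthesis, lay above level by less than the spread seen between probe sets of the same gene. Glutamate-cysteine ligase makes the first bond of glutathione and limits its rate. Its catalytic subunit GCLC, on chromosome 6, had 7.79 on the control and 7.89 on the MTA1 array, a difference of 0.11. Its modifier subunit GCLM, on chromosome 1 and with the printed core next to its start, had 9.33 and 9.38, a difference of 0.05. GSS, which adds glycine in the second step, was lower, at 8.18 and 8.01. These 3 differences were each smaller than the pooled SD of 0.27 between probe sets of 1 gene over 149 genes. That SD holds no spread between cultures.

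The cystine importer was the second highest of the 9 differences. SLC7A11, on chromosome 4, encodes xCT, the transport subunit that brings cystine in for glutathione and is a target of both NRF2 and ATF4. It had 14.87 on the control and 15.12 on the MTA1 array, which is 1.197-fold higher, a log2 difference of 0.26. Of 81 genes within 0.5 log2 of its mean signal, 25 differed at least as much in size. SLC3A2, the heavy chain that carries xCT to the membrane, had 12.57 and 12.76. CTH, which makes cysteine from cystathionine, had 8.12 and 8.38. Both were named after their values were seen.

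The wider list of glutathione synthesis and cysteine supply held 13 genes, all at or above the floor. Of them 8 lay above 0 and 5 below, with a median of 0.086, and none was 1.5-fold apart. The 10 that are not among the 9 had 5 above 0 and 5 below, with a median of 0.030. The 4 bacterial hybridisation controls spiked into both samples were higher on the MTA1 array by 0.23 to 0.28, about as much as SLC7A11. With both arrays scaled to these controls, all differences drop by 0.24, the median over all genes becomes -0.26, and NFE2L2, GCLC and GCLM turn from above 0 to below it. SLC7A11 then stood at 0.014 and HMOX1 at 0.10. Such a shift subtracts the same value from every gene, so by construction it leaves the 9 where they were relative to all genes.

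**Figure D2:**
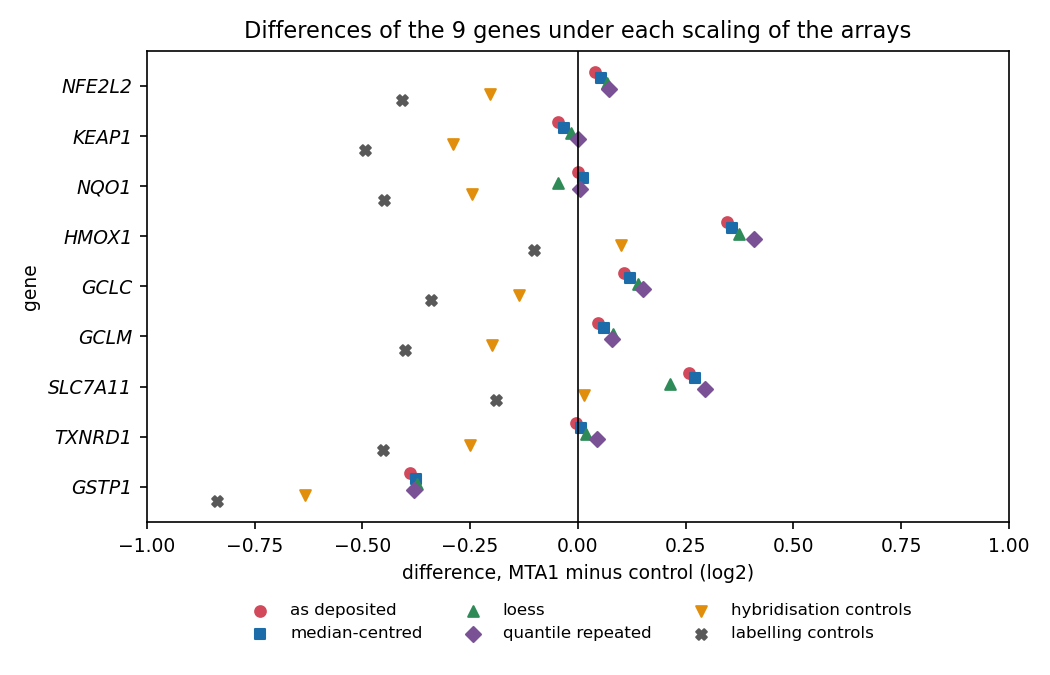
Log2 difference, MTA1 minus control, of each of the 9 genes under 6 scalings of the 2 arrays (symbols). HMOX1 and SLC7A11 lie above 0 and GSTP1 below it under the scalings that use all genes, and every gene moves left when the arrays are scaled to spiked controls, with GSTP1 lowest throughout.

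HMOX1, on chromosome 22, encodes heme oxygenase 1, the inducible enzyme that opens the heme ring to biliverdin, carbon monoxide and iron. It had 6.60 on the control and 6.94 on the MTA1 array, a log2 difference of 0.35. At least as large a difference was found for 10.5% of all genes, and for 207 of the 1759 genes within 0.5 log2 of its mean signal. At a 1.2-fold threshold HMOX1 was the only one of the 9 that was higher, where 8.4% of all genes were.

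Other genes of heme and iron handling lay mostly on the other side. Of 8 besides HMOX1 at or above the floor, 1 lay above 0 and 7 below, the median was -0.14, and none was 1.5-fold apart. HMOX2, the constitutive heme oxygenase, had 7.43 and 7.30. The biliverdin reductases that take up its product stood at 7.28 and 7.14 for BLVRA and at 10.72 and 10.52 for BLVRB. HMOX1 was thus above level while these 3 genes were below it on these arrays, a difference in sign that was not tested. With the arrays scaled to the hybridisation controls HMOX1 stayed above 0, at 0.10, and with the labelling controls, a second set of spiked bacterial transcripts, it lay below 0 with the other 3, at -0.10.

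NQO1, on chromosome 16, encodes a quinone reductase widely used as a readout of NRF2 activity. It had 15.02 on both arrays, with a difference of -0.00061, and all 80 genes of like signal differed at least as much. It lay on the bright part of the scale, and the deposited values as a whole carry a transformation not stated in the sources used here. TXNRD1, on chromosome 12, encodes the cytosolic reductase of thioredoxin, has a core match in both of its windows and had 10.92 and 10.91. The sign of both turned under median centring.

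The enzymes around NQO1 and TXNRD1 held 2 of the 4 pathway genes that were at least 1.5-fold apart. Of 13 genes of quinone and carbonyl reduction and conjugation at or above the floor, 5 lay above 0 and 8 below, with a median of -0.0013, and 1 was 1.5-fold higher. That gene was UGDH, which makes UDP-glucuronic acid for conjugation, at 11.20 and 11.88, or 1.60-fold higher. Scaled to the hybridisation controls UGDH was 1.35-fold higher, and to the labelling controls 1.18-fold, both under 1.5-fold. AKR1C1, an aldo-keto reductase known as an NRF2 target, had 9.05 and 9.54, and its probes may also take up near-identical AKR1C relatives. NQO2, a relative of NQO1, had 6.36 and 6.26, and AKR1B10 was near the floor at 3.67 and 3.65.

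In the thioredoxin and peroxiredoxin system 10 genes were at or above the floor, 5 above 0 and 5 below, with a median of 0.052. TXNIP, which binds and inhibits thioredoxin and responds to glucose, was 1.88-fold lower, from 7.75 to 6.84, the only gene of the 134 listed pathway genes at or above the floor to be 1.5-fold lower. TXN, thioredoxin itself, was at 16.25 and 16.56. The mitochondrial TXN2 stood at 9.04 and 9.15, and its reductase TXNRD2 at 4.93 and 4.81.

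GSTP1, on chromosome 11 and with the core that overlaps an AP-1 site, encodes the pi class glutathione S-transferase, which joins glutathione to electrophiles and is known for its part in drug resistance. It had 11.79 on the control and 11.40 on the MTA1 array, a log2 difference of -0.39. At least as large a difference was found for 8.35% of all genes and for 36 of the 576 genes within 0.5 log2 of its signal. At 1.2-fold it was the only one of the 9 that was lower, where 9.35% of all genes were. It lay below 0 under every scaling run, from -0.84 to -0.37.

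The other transferases did not share that difference in size. Of 16 glutathione S-transferase genes at or above the floor, 8 lay above 0 and 8 below, with a median of -0.003. By the brightest cluster of each gene, GSTP1 held the largest difference and no other gene of the list was 1.2-fold apart. A dimmer cluster of MGST1, a membrane-bound transferase, had a difference of -0.47, while the brighter one had 0.14. GSTA4 had 4.40 and 4.30, GSTM1 8.30 on both arrays, and GSTM2 4.24 and 4.22. The GSTM genes are near-identical in places, so their probes may not tell them apart.

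**Figure D3:**
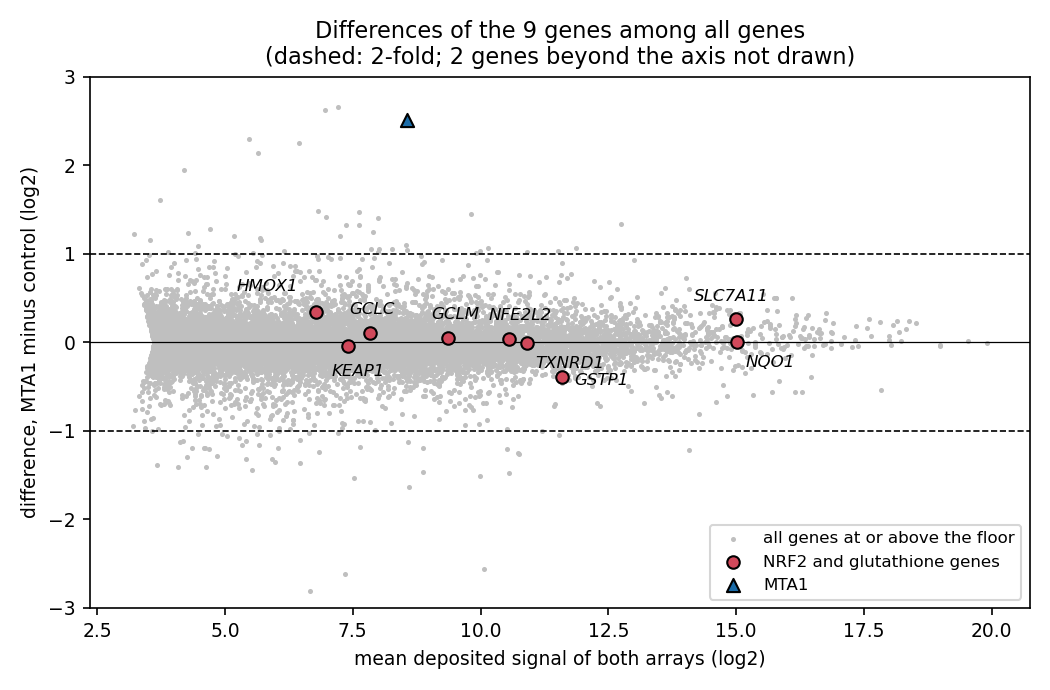
Log2 difference, MTA1 minus control, against the mean log2 signal of both arrays for genes at or above the floor (grey). The 9 genes are in red, MTA1 is a triangle and 2-fold is marked by dashed lines. Of the 14451 genes, 2 with a difference beyond 3 in size are not drawn. The 9 genes lie within the cloud of all genes, while MTA1 lies above the upper dashed line at 2.51.

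The largest difference among the pathway lists was that of a gene that breaks glutathione down. CHAC1, which cleaves glutathione in the cytosol and is a target of ATF4, was 2.52-fold higher, from 6.96 to 8.29. It was the only one of the 134 pathway genes to reach 2-fold, or 0.746% of them against 0.63% of all genes, a share near the background. Scaled to the labelling controls its difference was 0.88, under 2-fold, and scaled to either set of spiked controls TXNIP passed 2-fold, at -1.16 and -1.36. CHAC2, its relative, was lower, at 7.10 and 6.82. Of 9 breakdown genes at or above the floor 3 lay above 0 and 6 below, with a median of -0.097, on the other side of 0 from CHAC1. GGT5 and GGT7, of the gamma-glutamyltransferase family, were near the floor at 3.84 and 3.81 and at 4.14 and 4.02.

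Genes that recycle glutathione or spend it on peroxides had 8 of 13 above 0, a median of 0.069 and none 1.5-fold apart. GSR, which reduces oxidised glutathione, had 10.94 and 10.84. GPX1 had 9.07 and 9.15, and GPX4, the peroxidase that guards membranes against lipid peroxides, had 11.98 and 12.14. GPX2, a known NRF2 target, was below the floor of 3.62 on the control array, at 3.40, and above it on the MTA1 array, at 3.72. It was thus counted only through the array where it was higher. With both arrays required to pass, the median of the list was 0.060.

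NADPH feeds both the glutathione and the thioredoxin reductases. Of 7 NADPH supply genes 4 lay above 0, with a median of 0.017 and none 1.5-fold apart. The pentose phosphate enzymes PGD and PGLS had 12.81 and 13.16 and 6.87 and 7.29. TKT and TALDO1, of its later steps, had 12.62 and 12.58 and 13.11 and 13.24.

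The list of NRF2 target genes gave no common direction. It held 21 genes at or above the floor, 10 above 0 and 11 below, with a median of -0.00061. GPX2, counted among those above 0, passed the floor only on the MTA1 array. Without the 6 members described above, the 15 other genes of the list had a median of -0.18. OSGIN1, an oxidative stress growth inhibitor, had 5.13 and 5.16. TRIM16 had 8.64 and 8.46 and its partial copy TRIM16L 10.80 and 10.59. PIR, an iron-binding nuclear protein, had 5.99 and 5.63. The genes for other antioxidant enzymes had a median of 0.025, with SOD1 at 11.58 and 11.47, CAT at 11.29 and 11.16 and AIFM2 at 5.70 and 5.54. SOD2, of the same list, was read only by probe sets that carry several gene symbols, and so was not counted. A bright one had 11.11 and 10.79, a difference of -0.32, and a dimmer one 5.16 and 4.57, a difference of -0.59. With such probe sets allowed the median of the list was -0.046.

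SLC7A11 and CHAC1 are also ATF4 targets, so amino acid stress genes were listed beside the NRF2 targets. Of 11 such genes 8 lay above 0 and 3 below, and the median was 0.18. CHAC1 was 2-fold higher, and VLDLR, a lipoprotein receptor, was 1.59-fold higher, from 10.22 to 10.89. Scaled to the hybridisation controls VLDLR was 1.34-fold higher, and to the labelling controls 1.16-fold. ATF4 had 12.05 and 12.22, ATF3 5.56 and 5.90, DDIT3 5.71 and 5.70 and TRIB3 7.17 and 7.25. The 3 below 0 were DDIT3, DDIT4 at 11.82 and 11.37 and CEBPB at 6.13 and 5.86. The median of this list was the highest of the 12, and smaller in size than the difference of each hybridisation control. The lists were chosen with earlier results of these data known, so that rank is not an independent result.

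Over all 12 lists, 164 genes were listed, 145 measured and 134 at or above the floor. At 1.5-fold 3 were higher and 1 lower, or 2.99% against 3.2% of all genes, a share near the background. At 1.2-fold 17 were higher and 13 lower, or 22.4% against 17.7% of all genes, and that gap was not tested. Among the 17 was GPX2, which passed the floor only on the MTA1 array. The 125 genes that are not among the 9 had a median of -0.014, with 58 above 0 and 67 below.

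**Figure D4:**
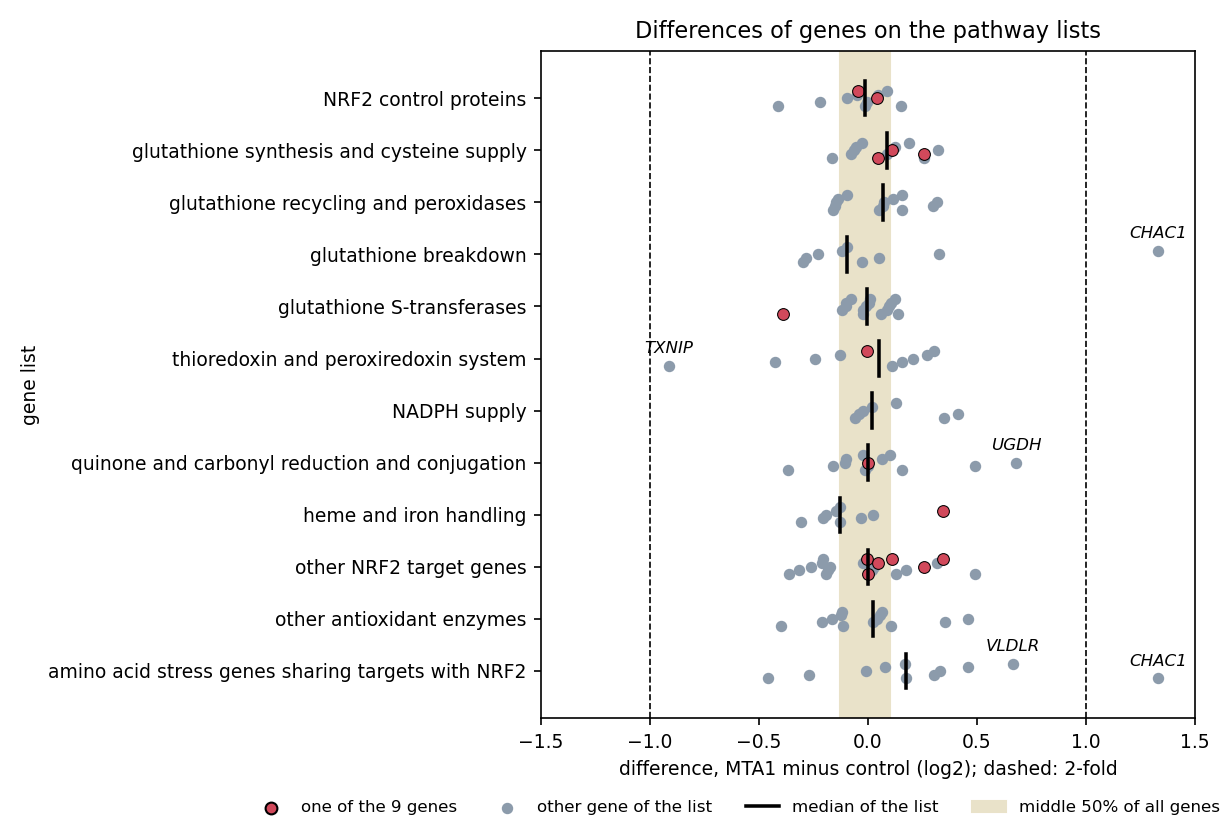
Log2 difference, MTA1 minus control, of each gene at or above the floor on the 12 pathway lists, with the 9 genes in red, list medians as black bars, the middle 50% of all genes shaded and 2-fold as dashed lines. Most points lie near the shaded range, and CHAC1, TXNIP, UGDH and VLDLR are the named points at least 1.5-fold apart.

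The labelled cell type was compared with marker genes. Of 12 genes that mark small cell lung cancer and its subtypes 10 were measured and 4 reached the floor, INSM1 at 4.06 and 4.21, UCHL1 at 5.30 and 5.21, ENO2 at 8.89 and 9.13 and YAP1 at 10.10 and 10.11. CHGA, SYP, NCAM1, DLL3, GRP and POU2F3 were below the floor on both arrays. All 5 epithelial genes at or above the floor were higher on the MTA1 array, with a median of 0.30. The hybridisation controls were higher by 0.23 to 0.28, close to that median. The keratins had 13.66 and 14.39 for KRT8, 12.92 and 13.19 for KRT18, 5.18 and 6.04 for KRT19 and 12.31 and 12.61 for KRT7. EPCAM was near the floor, with 3.96 and 4.18, and CDH1 did not reach it, with 3.09 and 3.13. The summed signal of the 6 epithelial genes, mostly that of bright keratins, went from 14.66 to 15.18 on the log2 scale. Of the fibroblast, endothelial and immune genes, COL1A1, DCN, PECAM1 and CD68 reached the floor. CD68, a lysosomal protein not limited to macrophages, was the only bright one, at 11.26 and 11.19, and PTPRC, the general leukocyte gene, was below the floor at 2.97 and 3.10. The part of the epithelial difference in the values above was not tested.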

How the data were processed

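RNA of control and MTA1-overexpressing NCI-H446 cells was hybridised to 1 array each. The values are log2 signals that the authors deposited, for which the submitters' processing notes name RMA; the sources used here give neither its version nor the array's genome build nor any further step. Values above 16, the log2 of the largest scanner reading, occurred at 829 of 70523 features, so fold sizes depend on a further transformation that is not known. The values ranged from 1.83 to 19.93, with medians of 3.67 and 3.68, and 1 control value was missing. The number of arrays limits the precision.

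Probe sets were named through the platform table: 23781 had 1 symbol, of which 21497 were matched to RefSeq and 2284 kept the platform's symbol, and 1543 with several symbols named no gene. For 19 of the listed genes no probe set with 1 symbol was at hand. They entered no count, except where probe sets with several symbols were admitted as an alternative. A gene took its brightest probe set and was counted if its higher value reached the floor, percentile 50 of transcript clusters. Differences are MTA1 minus control on the log2 scale, and counts use 2-fold, 1.5-fold and 1.2-fold thresholds. Named were the 9 genes, MTA1, listed genes at least 1.5-fold apart, the first 4 genes of a list at or above the floor, markers and spiked controls. SLC3A2, CTH, SQSTM1, NFE2L3, MGST1, MGST3, SOD2, DDIT4 and CEBPB were named after their values were seen. The members and lists were chosen with earlier results of these data known. Motifs were searched in RefSeq promoter windows. Alternatives changed the scaling, floor, probe set per gene and threshold. Fold counting, quantile normalisation and the loess fit were tested on simulated data, with less noise than the spread of the real differences. The choice of probe set, the floor and the motif search were not tested in that way. Python 3.11.15 with numpy 2.4.6, pandas 2.3.3, statsmodels 0.14.6 (loess span 0.3) and matplotlib 3.10.9 was used.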

Additional observations from a re-analysis of the deposited data

How the results depend on the processing

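The 9 genes had no 2-fold difference under any of the 11 alternatives of scaling, floor and probe set. At 1.2-fold 2 of them passed, HMOX1 and GSTP1, and at 1.5-fold none. Floors, probe set rules and admitting probe sets with several symbols could not move any of the 9 differences. Each of the 9 genes had 1 cluster and passed every floor, so only the alternatives of scaling could change them. With quantile normalisation repeated 8 of the 9 lay above 0, and with the arrays shifted to the hybridisation controls 2 did. Under that shift 2 listed pathway genes were 2-fold apart and 9 were 1.5-fold apart. A shift to the 4 bacterial labelling controls, which were higher on the MTA1 array by 0.17 to 0.84, was added after seeing the data. It left 0 of the 9 above 0, a median of -0.41 and 34 pathway genes 1.5-fold apart, and CHAC1, at 0.88, was no longer 2-fold apart, while TXNIP, at -1.36, was. The differences were then -0.41 for NFE2L2, -0.49 for KEAP1, -0.45 for NQO1, -0.10 for HMOX1, -0.34 for GCLC, -0.40 for GCLM, -0.19 for SLC7A11, -0.45 for TXNRD1 and -0.84 for GSTP1, and 2.06 for MTA1. No paired analysis was possible because each group had 1 array, and for the same reason no replicate could be left out. Transcript levels do not show NRF2 protein, and no spread between cultures is known.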

Other observations

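A few pathway genes were read by 2 transcript clusters, and these did not always go the same way. The brighter cluster of MGST1 had log2 signals of 8.15 and 8.29 on the control and MTA1 arrays, and the dimmer one had 6.00 and 5.53. MGST3 was higher in both, by 0.10 and 0.16, and MSRA, a methionine sulfoxide reductase, was higher in both, by 0.06 and 0.28. Each of the 9 NRF2 and glutathione genes had 1 cluster, so no such comparison exists for them.

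Control probes with no target, grouped by GC content into 23 sets, differed between the arrays by a median of -0.0055, and the sets ranged from -0.48 to 0.35.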
